A study of Mus musculus with 4 samples.

Results

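Spots marked as lying on an amyloid plaque were compared with unmarked spots of brain white matter, separately in both sections from mice with the 5xFAD transgenes. White matter here means the 1345 of 10549 spots that the authors' spot table labels FB, an abbreviation that the labels do not spell out. In the 5xFAD-Dp16 section 33 of these spots were marked plaque, 101 were marked as neighbours of a plaque spot and 181 had neither mark. In the 5xFAD section the numbers were 39 plaque, 76 neighbour and 187 unmarked spots. The comparison therefore rests on 440 plaque and unmarked spots. Neighbours stayed out of the unmarked class, and their values are given beside it.

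The data are Visium spatial transcriptomes, in which each barcoded spot captures the RNA of the tissue above it and can hold parts of several cells. There were 4 sections, 1 per genotype, each from 1 male mouse aged 9 months, namely 5xFAD-Dp16, 5xFAD, Dp16 and wild-type C57BL/6J. Hemispheres taken between bregma 1 and -2 mm were cut at 10 µm, fixed in methanol and stained with haematoxylin and eosin. Mice of the 5xFAD line express mutant human genes of inherited Alzheimer's disease from the neuronal Thy1 promoter and form amyloid plaques. Dp16 mice carry a duplicated stretch of a mouse chromosome that matches much of the human chromosome trisomic in Down syndrome. The 5xFAD-Dp16 mouse carries both, so the 2 sections with plaques share the transgenes and differ in the duplication, in the animal and in the slide area. The sources used here do not say how plaques were recognised, how marks and region labels were set, or whether any transcript entered the marks.

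White matter is made of axons wrapped in myelin by oligodendrocytes, with astrocytes, microglia and few neuronal cell bodies. In mouse models of amyloid deposition, microglia gather at plaques and turn on a program that depends on the lipid-sensing receptor Trem2 and its signalling adaptor Tyrobp, with raised genes for lysosomal proteases, lipid handling, complement and antigen presentation. Oligodendrocytes in such models have been described with raised C4b, Serpina3n and MHC class I transcripts, and white matter is one of the places where microglia take on a similar state with age.

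The spots carried transcripts of oligodendrocytes and myelin, whose levels in other regions are not given here. All 35 genes of a list of mature oligodendrocyte and myelin genes were detected in every class, and their summed level was 47082 CPM in plaque and 46166 in unmarked spots of the 5xFAD-Dp16 section, and 40870.2 and 42096 CPM in plaque and unmarked spots of the 5xFAD section. The 30 genes of the neuron and synapse list summed to 7448 CPM in plaque and 6979 in unmarked spots of the 5xFAD-Dp16 section, and 9435 and 5738 CPM in plaque and unmarked spots of the 5xFAD section. Levels are CPM, a gene's unique molecular identifiers (UMIs) divided by all UMIs of the summed spots and scaled as counts per 1000000. The sums held 234699 UMIs in plaque and 1160999 in unmarked spots of the 5xFAD-Dp16 section, and 304403 and 1420148 UMIs in plaque and unmarked spots of the 5xFAD section. Median UMIs per spot lay between 5671 and 6791 over the plaque, neighbour and unmarked classes of both sections. The share of mitochondrially encoded UMIs in the sum was 7.26% in plaque against 12.4% in unmarked spots of the 5xFAD-Dp16 section, and 9.66% against 11.6% in the 5xFAD section. Plaque spots made up 10.5% of white matter spots in the 5xFAD-Dp16 section (95% exact binomial interval 7.32 to 14.4) and 12.9% in the 5xFAD section (9.35 to 17.2). In all other regions they made up 13.8% and 13.9% of spots.

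The unmarked classes of the 2 sections did not hold the same tissue. The choroid plexus and ependyma list summed to 1602 CPM in plaque and 2262 in unmarked spots of the 5xFAD-Dp16 section, and 923 and 52300.2 CPM in plaque and unmarked spots of the 5xFAD section. The authors' expression cluster 13 held 4 of the 181 unmarked spots of the 5xFAD-Dp16 and 28 of the 187 of the 5xFAD section. Neighbour spots of the 5xFAD-Dp16 section also carried choroid plexus signal, at 21539 CPM, against 1589.6 CPM in neighbours of the 5xFAD section. Genes of the choroid plexus, meninges, cortex, thalamus and striatum are therefore described after the glial genes, each with both sections' values. Of 3164 distinct barcodes, 2879 occurred in more than 1 section, as the array positions recur.

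With 1 section per genotype no test was possible within a section, and spots were not treated as replicates. Each section's ratio is the log2 of plaque over unmarked CPM with an exact conditional binomial 95% interval that covers counting error only. In each pair of ratios below, the 5xFAD-Dp16 section is given before the 5xFAD section, with the interval in parentheses where it is printed. A test across sections took the 4 sums as libraries with the section as a block (edgeR's quasi-likelihood test, Benjamini-Hochberg adjustment over 6121 genes of a mean of at least 20 CPM, threshold 0.05). This fit had 1 residual degree of freedom and gave every gene the spread of the trend, so a gene that moved in 1 section alone could pass. In sums of spots, fewer cells of a type and less RNA per cell cannot be told apart.

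Of the 6121 genes, 88 were higher in plaque spots by edgeR (1.44%) and 78 were lower (1.27%). Of these, 68 of the higher genes (1.11% of those tested) and 34 of the lower (0.555%) also moved the same way beyond counting error in each section. DESeq2 called 20 higher and 10 lower, and gave 1424 of the 6121 genes no adjusted p. EdgeR without the section as a block called 18 and 5. Without the test, 159 genes (2.60%) were higher and 39 (0.637%) lower beyond counting error in both sections, and 23 (0.376%) moved in opposite directions. Past 1.5-fold in both sections, beyond counting error, were 100 higher (1.63%) and 13 lower genes (0.212%). The median log2 ratio of all genes tested was 0.10 in the 5xFAD-Dp16 and 0.14 in the 5xFAD section on the CPM scale, and -0.0085 and -0.026 with TMM factors. List medians below are given relative to it. Of the 88 higher genes, 43 belonged to the 99 tested genes of the microglial, lysosomal, complement, antigen presentation and interferon lists. These lists were put together with earlier results of these data known. Some of the 43, such as Itgax, Gpnmb, Fcgr2b, Cd14 and Igf1, passed the 20 CPM filter only through plaque spots. Such genes had to differ to be tested.

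**Figure D1:**
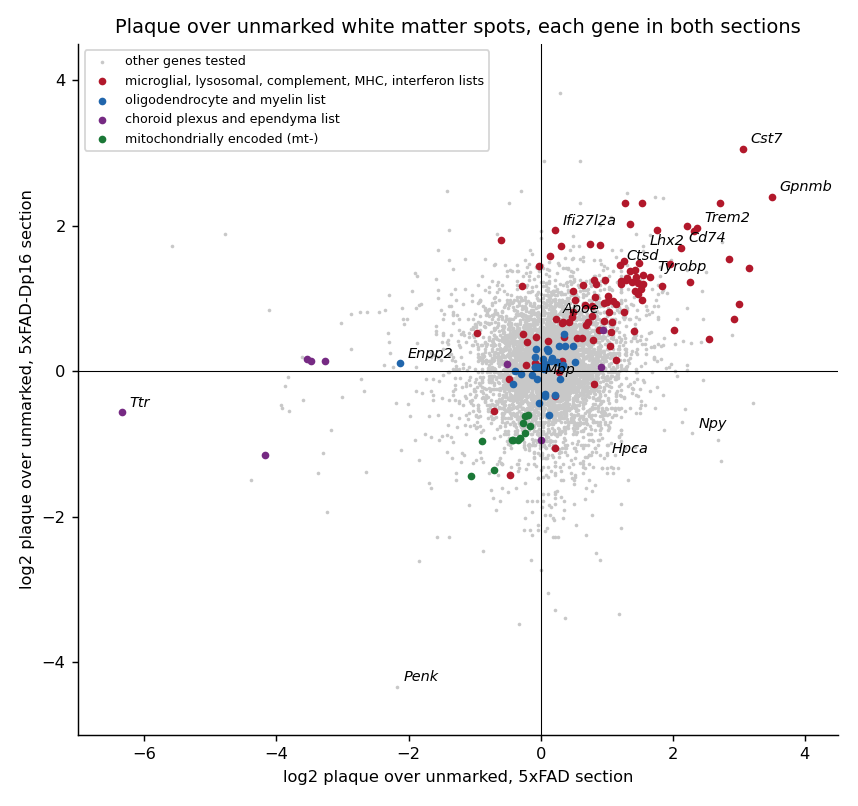
Log2 ratio of plaque over unmarked white matter spots for the 6118 tested genes that have a ratio in both sections, with the 5xFAD section on the horizontal and the 5xFAD-Dp16 section on the vertical axis; each point is 1 gene and colours mark gene lists. The microglial and lysosomal lists lie mostly in the upper right, the myelin list lies near 0 on both axes apart from Enpp2, and Ttr and other choroid plexus genes are displaced along the axis of the 5xFAD section.

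Several receptors and adaptors of plaque microglia rose in plaque spots. Trem2 was at 609 CPM in plaque spots, 249.9 in neighbours and 155 in unmarked spots of the 5xFAD-Dp16 section, and at 562, 201 and 109 CPM in plaque, neighbour and unmarked spots of the 5xFAD section. Trem2 had log2 ratios 1.97 (1.65 to 2.30) and 2.36 (2.04 to 2.69) (edgeR log2 fold change 2.03 ± 0.17 SE, adjusted p = 5.58e-29). Plaque spots held the highest level in both sections, and neighbours lay between plaque and unmarked spots. The levels were 39.0 CPM in Dp16 and 56.4 CPM in wild-type white matter, below every class of the sections with plaques. Tyrobp, the adaptor that carries the Trem2 signal, was at 1645 CPM in plaque spots, 713 in neighbours and 668 in unmarked spots of the 5xFAD-Dp16 section, and at 1275, 579.8 and 405 CPM in plaque, neighbour and unmarked spots of the 5xFAD section. For Tyrobp the edgeR log2 fold change was 1.34 ± 0.13 SE (adjusted p = 2.26e-21). Itgax, an integrin that marks reactive microglia, was at 42.6 CPM in plaque against 8.61 in unmarked spots of the 5xFAD-Dp16 section, and 55.8 against 8.45 CPM in the 5xFAD section. For Itgax the edgeR log2 fold change was 2.38 ± 0.43 SE (adjusted p = 2.84e-06), resting on 10 and 17 UMIs in plaque spots. Gpnmb, a membrane glycoprotein of phagocytic cells, was at 68.2 CPM in plaque against 12.9 in unmarked spots of the 5xFAD-Dp16 section, and 72.3 against 6.34 CPM in the 5xFAD section. For Gpnmb the edgeR log2 fold change was 2.77 ± 0.41 SE (adjusted p = 3.15e-09). Both Itgax and Gpnmb were under 20 CPM in unmarked spots of both sections, so they passed the filter on low levels only through plaque spots and had to differ to be tested.

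Of the 17 tested members of the receptor list, 10 rose by edgeR and none fell, and counting error was passed upward in both sections by 12. Of the 23 genes listed, 6 stayed under the filter on low levels. Fcgr2b and Cd14 also passed that filter only through plaque spots. The list's relative median was 0.92 in the 5xFAD-Dp16 and 1.27 in the 5xFAD section. The other members that rose were the Fc receptor subunit Fcer1g (log2 ratios 1.20 and 1.55), the inhibitory Fc receptor Fcgr2b (2.03 and 1.35), the surface glycoprotein Cd52 (0.56 and 1.41), the tetraspanin Cd9 (0.96 and 1.00), the lipopolysaccharide co-receptor Cd14 (0.72 and 2.92) and Ly86 (1.17 and 1.83). Cd63, another tetraspanin, had log2 ratios of 0.47 and 0.36 and Axl, a receptor tyrosine kinase, 1.02 and 0.82, and neither passed (edgeR adjusted p = 0.593 and 0.568). The ratios of Cd63 passed counting error in both sections.

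**Figure D2:**
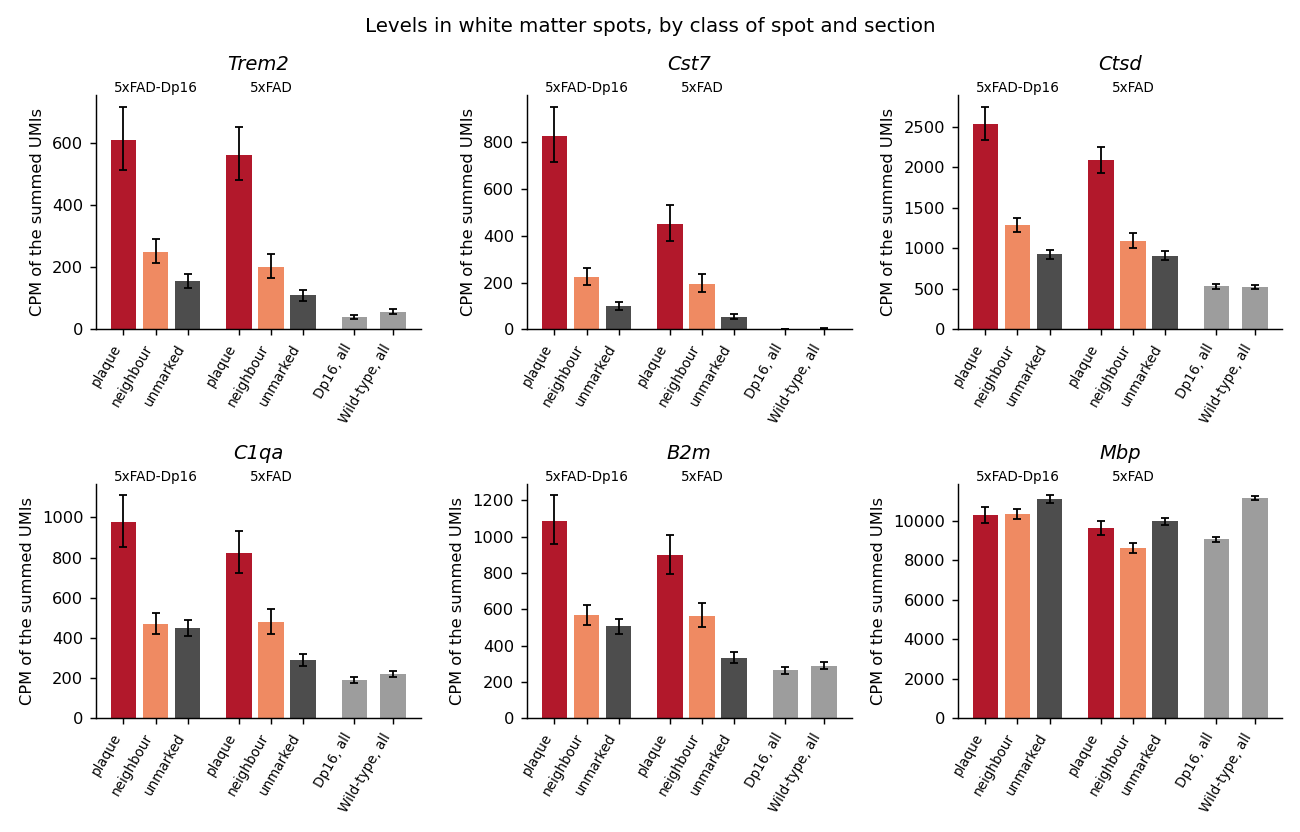
CPM of 6 genes in the summed UMIs of plaque (red), neighbour (orange) and unmarked (dark grey) white matter spots of the 5xFAD-Dp16 and 5xFAD sections, and of all white matter spots of the Dp16 and wild-type sections (light grey); bars start at 0 and error bars are exact Poisson 95% intervals that cover counting error only. Trem2, Cst7, Ctsd, C1qa and B2m are highest in plaque spots of both sections, while Mbp differs little between classes.

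Among secreted and lipid-handling products, Cst7, a cystatin that inhibits cathepsins, had the highest edgeR log2 fold change. It stood at 827 CPM in plaque spots, 224 in neighbours and 99.1 in unmarked spots of the 5xFAD-Dp16 section, and at 450.1, 195 and 53.5 CPM in plaque, neighbour and unmarked spots of the 5xFAD section. Cst7 had log2 ratios 3.06 (2.72 to 3.41) and 3.07 (2.66 to 3.50) (edgeR log2 fold change 2.93 ± 0.18 SE, adjusted p = 1.67e-53). Sections without the transgenes held almost none, with 0.749 CPM in Dp16 and 2.05 CPM in wild-type white matter. The fold of plaque over unmarked spots was 8.34 in the 5xFAD-Dp16 and 8.41 in the 5xFAD section. Of the 16 tested members of this list 7 rose and none fell, with a relative median of 0.61 in the 5xFAD-Dp16 and 0.87 in the 5xFAD section. The chemokine Ccl6 had 273 CPM in plaque against 71.5 in unmarked spots of the 5xFAD-Dp16 section, and 191 against 38.0 CPM in the 5xFAD section. For Ccl6 the edgeR log2 fold change was 1.97 ± 0.24 SE (adjusted p = 1.48e-13). The growth factor Igf1, which also passed the filter only through plaque spots, had log2 ratios of 1.55 and 2.85 (edgeR log2 fold change 2.00 ± 0.41 SE, adjusted p = 0.00011). Osteopontin (Spp1) was at 179 CPM in plaque against 94.7 in unmarked spots of the 5xFAD-Dp16 section, and 276 against 34.5 CPM in the 5xFAD section (edgeR adjusted p = 8.2e-12). The chemokine Ccl3 had log2 ratios of 1.41 and 3.16, lysozyme (Lyz2) 1.48 and 1.97 and the fatty acid binding protein Fabp5 0.67 and 0.72, and all 3 passed. Apoe, the main apolipoprotein of the brain, was at 5023 CPM in plaque against 3047 in unmarked spots of the 5xFAD-Dp16 section, and 5043 against 4303 CPM in the 5xFAD section. For Apoe the edgeR log2 fold change was 0.33 ± 0.14 SE (adjusted p = 0.264). Its log2 ratios, 0.72 (0.63 to 0.82) and 0.23 (0.15 to 0.31), both passed counting error, but Apoe did not pass the test. Fth1, the ferritin heavy chain, was abundant and close to equal (47001 CPM in plaque against 44906 in unmarked spots of the 5xFAD-Dp16 section, and 31668 against 31938 CPM in the 5xFAD section; edgeR adjusted p = 0.891). Galectin-3 (Lgals3) had log2 ratios of -1.42 and -0.46 and did not pass (edgeR adjusted p = 0.397).

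The promoters of the 3 genes that stood highest by the smaller of their 2 section ratios, Cst7, Gpnmb and Itgax, are shown because these genes moved together. Each is the RefSeq window on GRCm38.p6 from 250 bases before to 50 bases after the gene's start, 5′ to 3′ on the gene's strand, which is the plus strand for all 3: chr2:150570165-150570464 for Cst7, chr6:49036268-49036567 for Gpnmb and chr7:128129300-128129599 for Itgax.
Cst7: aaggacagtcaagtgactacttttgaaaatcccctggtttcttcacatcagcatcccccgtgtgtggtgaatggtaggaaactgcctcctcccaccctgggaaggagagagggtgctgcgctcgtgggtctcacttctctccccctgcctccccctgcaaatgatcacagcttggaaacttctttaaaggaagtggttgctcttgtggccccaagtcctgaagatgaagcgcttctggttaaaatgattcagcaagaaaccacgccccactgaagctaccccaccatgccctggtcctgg
Gpnmb: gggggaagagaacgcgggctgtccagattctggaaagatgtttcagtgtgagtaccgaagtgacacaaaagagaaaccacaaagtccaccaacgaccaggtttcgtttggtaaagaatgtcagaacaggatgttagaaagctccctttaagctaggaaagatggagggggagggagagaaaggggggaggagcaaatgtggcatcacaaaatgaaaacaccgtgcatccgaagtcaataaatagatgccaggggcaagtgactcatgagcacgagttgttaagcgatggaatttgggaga
Itgax: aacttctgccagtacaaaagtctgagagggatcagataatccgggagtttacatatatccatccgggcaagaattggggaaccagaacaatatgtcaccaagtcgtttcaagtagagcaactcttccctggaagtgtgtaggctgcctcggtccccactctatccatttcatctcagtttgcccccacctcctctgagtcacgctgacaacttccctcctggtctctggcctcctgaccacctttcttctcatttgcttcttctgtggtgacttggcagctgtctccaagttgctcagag
The windows were searched on both strands for GAGGAA, the core of binding sites of the myeloid factor PU.1, and for CACGTG, the E-box core bound by regulators of lysosomal genes. The motifs do not overlap each other, neither occurred in the 3 windows, and so no base is in capitals. Of the 88 genes higher by edgeR, 64 had a window in the table, and 26.6% of these held GAGGAA against 25.2% of the windows of tested genes and 28.3% of all 27025 windows. For CACGTG the shares were 9.38%, 10.7% and 7.24%.

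Of 28 tested lysosomal genes 12 rose by edgeR and none fell, and the relative median was 0.77 in the 5xFAD-Dp16 and 0.59 in the 5xFAD section. Ctsd, the main aspartic protease of lysosomes, was at 2539 CPM in plaque spots, 1291 in neighbours and 925 in unmarked spots of the 5xFAD-Dp16 section, and at 2089, 1093 and 911 CPM in plaque, neighbour and unmarked spots of the 5xFAD section. Ctsd had log2 ratios 1.46 (1.31 to 1.60) and 1.20 (1.06 to 1.34) (edgeR log2 fold change 1.19 ± 0.13 SE, adjusted p = 2.27e-16). Ctsb, a cysteine protease, was at 1351 CPM in plaque against 706 in unmarked spots of the 5xFAD-Dp16 section, and 1196 against 618 CPM in the 5xFAD section. For Ctsb the edgeR log2 fold change was 0.80 ± 0.13 SE (adjusted p = 9.3e-08). Cd68, a lysosomal membrane protein of macrophages and microglia, was at 149 CPM in plaque against 63.7 in unmarked spots of the 5xFAD-Dp16 section, and 141 against 29.6 CPM in the 5xFAD section. For Cd68 the edgeR log2 fold change was 1.58 ± 0.28 SE (adjusted p = 2.96e-06). The further cathepsins Ctsl (1.52 and 1.27), Ctss (1.38 and 1.35), Ctsz (1.30 and 1.45) and Ctsa (0.92 and 0.67) rose, as did the beta-hexosaminidase subunit Hexa (1.40 and 1.43) and the cholesterol-binding Npc2 (0.97 and 0.52), all as log2 ratios. Psap, the precursor of the saposins, went opposite ways, with 1133 CPM in plaque against 857 in unmarked spots of the 5xFAD-Dp16 section, and 1215 against 1404 CPM in the 5xFAD section (log2 ratios 0.40 (0.20 to 0.60) and -0.21 (-0.37 to -0.05)).

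All 3 genes of the complement starter C1q rose. C1q opens the classical complement pathway, and its subunit genes had similar ratios. C1qa was at 976 CPM in plaque against 447 in unmarked spots of the 5xFAD-Dp16 section, and 825 against 289 CPM in the 5xFAD section. The log2 ratios were 1.13 and 1.51 for C1qa, 1.21 and 1.48 for C1qb and 1.32 and 1.55 for C1qc (edgeR log2 fold change 1.18 ± 0.14 SE, adjusted p = 1.28e-14 for C1qa). C4b, the next component of that pathway and one that oligodendrocytes and astrocytes also make, was at 571 CPM in plaque against 248 in unmarked spots of the 5xFAD-Dp16 section, and 434 against 242 CPM in the 5xFAD section. For C4b the edgeR log2 fold change was 0.88 ± 0.16 SE (adjusted p = 6.49e-06). Of 7 tested complement genes 4 rose and none fell (relative medians 1.11 and 1.34).

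Of 12 tested antigen presentation genes 6 rose and none fell, with relative medians of 1.15 and 1.14. B2m, the light chain of MHC class I, was at 1086 CPM in plaque spots, 566 in neighbours and 506 in unmarked spots of the 5xFAD-Dp16 section, and at 897, 564 and 332 CPM in plaque, neighbour and unmarked spots of the 5xFAD section. For B2m the edgeR log2 fold change was 1.13 ± 0.14 SE (adjusted p = 3.27e-14). The class I heavy chains H2-D1 (log2 ratios 1.22 and 1.38) and H2-K1 (1.26 and 0.98) moved with it. The class II invariant chain Cd74 was at 89.5 CPM in plaque against 27.6 in unmarked spots of the 5xFAD-Dp16 section, and 296 against 67.6 CPM in the 5xFAD section. For Cd74 the edgeR log2 fold change was 1.84 ± 0.26 SE (adjusted p = 5.16e-10). The class II chains H2-Aa (2.31 and 1.54) and H2-Ab1 (1.94 and 1.76) also passed on 7 UMIs each in the plaque spots of the 5xFAD-Dp16 section. Cd74 also differed between the sections without plaques, at 67.8 CPM in Dp16 and 9.23 CPM in wild-type white matter. Of the 12 genes of the lymphocyte and neutrophil list 3 were tested: 2 rose, Trbc2 and Ighm, and 1 fell, Igkc. In the plaque sums 4 listed genes were at 0 in the 5xFAD-Dp16 and 6 in the 5xFAD section. Trbc2, a T cell receptor constant region, was at 59.7 CPM in plaque against 23.3 in unmarked spots of the 5xFAD-Dp16 section, and 55.8 against 9.86 CPM in the 5xFAD section. For Trbc2 the edgeR log2 fold change was 1.74 ± 0.41 SE (adjusted p = 0.00132), resting on 14 and 17 UMIs in plaque spots. Its unmarked spots alone did not reach a mean of 20 CPM, so Trbc2 passed that filter through its plaque spots. It was at 25.1 CPM in Dp16 and 29.5 CPM in wild-type white matter. Ighm, an immunoglobulin heavy chain, was at 149 CPM in plaque against 55.1 in unmarked spots of the 5xFAD-Dp16 section, and 88.7 against 25.3 CPM in the 5xFAD section. For Ighm the edgeR log2 fold change was 1.46 ± 0.31 SE (adjusted p = 0.000211). Igkc was at 0 in plaque spots of both sections and at 2.58 and 632 CPM in unmarked spots of the 5xFAD-Dp16 and 5xFAD sections. The lymphocyte and neutrophil list summed to 285 CPM in plaque and 92.2 in unmarked spots of the 5xFAD-Dp16 section, and 154 and 675 CPM in plaque and unmarked spots of the 5xFAD section, and its part in the antigen presentation result was not tested. No border macrophage marker reached 20 CPM, and that list summed to between 6.57 and 35.2 CPM.

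Interferon-stimulated genes had larger ratios in the 5xFAD-Dp16 than in the 5xFAD section. Of 6 tested members 1 rose, Ifi27l2a, which was at 277 CPM in plaque against 72.4 in unmarked spots of the 5xFAD-Dp16 section, and 52.6 against 45.1 CPM in the 5xFAD section. Ifi27l2a had log2 ratios 1.94 (1.45 to 2.42) and 0.22 (-0.67 to 1.03) (edgeR log2 fold change 1.17 ± 0.27 SE, adjusted p = 0.000802). Its ratio passed counting error in the 5xFAD-Dp16 section alone. Relative medians were 1.16 and 0.20, and all 6 members were higher beyond counting error in the 5xFAD-Dp16 section against 1 in the 5xFAD section, where 1 was lower. Of all genes, 7.37% were higher and 2.53% lower in that way in the 5xFAD-Dp16 section, and 12.9% and 3.95% in the 5xFAD section. Ifi27, another member, had log2 ratios of 0.53 and -0.97. The difference between the sections was not tested.

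Homeostatic microglial genes were higher in part. Of 14 tested members 3 rose and none fell, with relative medians of 0.75 and 0.69. Cst3, cystatin C, which astrocytes also make, was at 12326 CPM in plaque against 8289 in unmarked spots of the 5xFAD-Dp16 section, and 11061 against 5972 CPM in the 5xFAD section. For Cst3 the edgeR log2 fold change was 0.59 ± 0.14 SE (adjusted p = 0.000802). Fcrls, an Fc receptor-like gene of mouse microglia, was at 196 CPM in plaque against 49.1 in unmarked spots of the 5xFAD-Dp16 section, and 174 against 37.3 CPM in the 5xFAD section. For Fcrls the edgeR log2 fold change was 1.97 ± 0.26 SE (adjusted p = 2.1e-11). The orphan receptor Gpr34 also rose, with log2 ratios of 1.74 and 0.90 (edgeR adjusted p = 0.0381). The purinergic receptor P2ry12 had ratios of 1.04 and 1.02, the fractalkine receptor Cx3cr1 0.81 and 1.27, the growth factor receptor Csf1r 0.68 and 0.34 and Tmem119 -0.35 and 0.22, and none of these 4 passed (edgeR adjusted p 0.145, 0.336, 0.655 and 0.958).

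**Figure D3:**
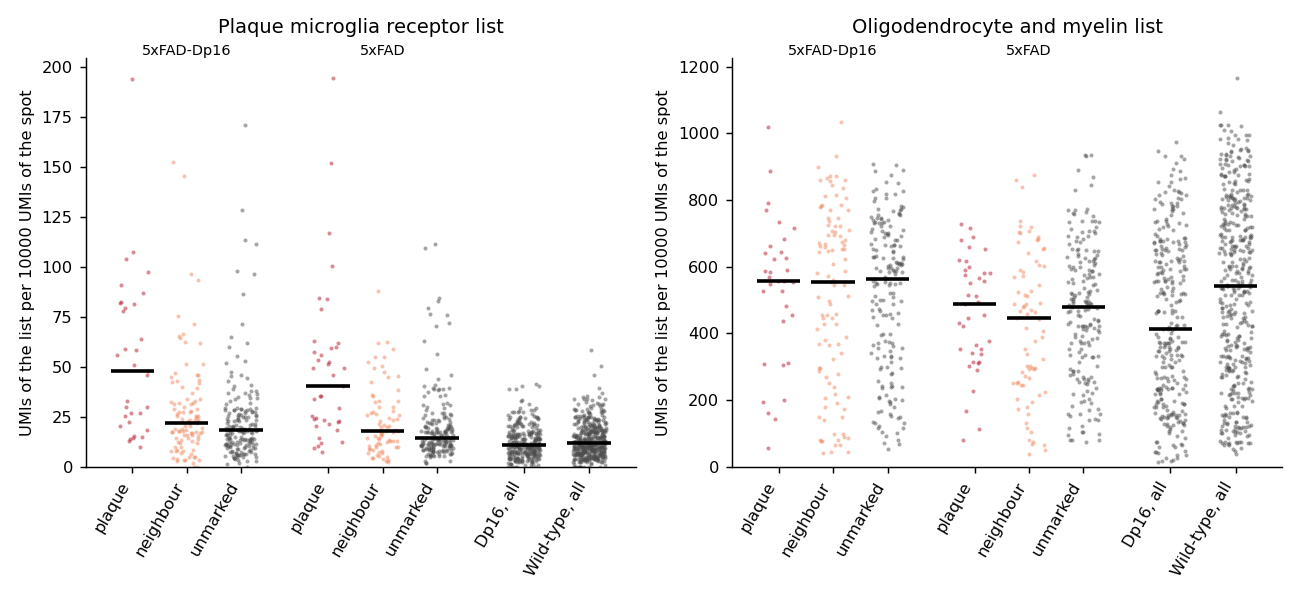
UMIs of the plaque microglia receptor list (left) and of the oligodendrocyte and myelin list (right) per 10000 UMIs of a spot, for every white matter spot by class and section; each point is 1 spot and the black bar is the median. Median receptor levels are 47.9 and 40.5 in plaque spots against 18.2 and 14.6 in unmarked spots of the 5xFAD-Dp16 and 5xFAD sections, and the classes overlap.

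At the level of single spots the classes overlapped. The summed receptor list had a lowest, median and highest value of 9.89, 47.9 and 194 UMIs per 10000 in plaque spots of the 5xFAD-Dp16 section, against 0, 18.2 and 171 in unmarked spots. In the 5xFAD section the values were 7.52, 40.5 and 195 in plaque against 1.85, 14.6 and 112 in unmarked spots. The plaque median was exceeded by 14 of 181 unmarked spots (7.73%) in the 5xFAD-Dp16 section and by 16 of 187 (8.56%) in the 5xFAD section. After thinning every spot to 3421 UMIs, which left out 3 plaque and 23 unmarked spots of the 5xFAD-Dp16 section and 1 and 10 of the 5xFAD section, Cst7 was detected in 56.7% of plaque spots (95% exact binomial interval 37.4 to 74.5) against 14.6% of unmarked spots (9.46 to 21.0) in the 5xFAD-Dp16 section. In the 5xFAD section the shares were 57.9% (40.8 to 73.7) and 11.9% (7.496 to 17.6) of plaque and unmarked spots. In Dp16 white matter Cst7 was found in 0 of 267 spots, where a floor of 3 spots allows a share of up to 1.12% and the exact binomial interval one of up to 1.37%, and in wild-type white matter in 1 of 383 (0.261%). Without thinning, Cst7 was detected in 20 of 33 plaque and 32 of 181 unmarked spots of the 5xFAD-Dp16 section, and in 29 of 39 plaque and 33 of 187 unmarked spots of the 5xFAD section, against 2 of 293 Dp16 and 8 of 435 wild-type spots.

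Of 35 tested oligodendrocyte and myelin genes none rose and 1 fell by edgeR, and the relative medians were -0.04 and -0.07. The medians depended on the clusters compared: they were -0.26 and -0.32 within cluster 3 alone, -0.13 and -0.34 in clusters 3 and 11, and 0.04 and 0.10 with cluster weighting. Within cluster 3 the list members Trf, the iron carrier transferrin (log2 fold change -0.55 ± 0.14 SE, edgeR adjusted p = 0.0314), and Apod, an apolipoprotein (-0.58 ± 0.14 SE, adjusted p = 0.0159), were lower in plaque spots. Mbp, myelin basic protein, was at 10281 CPM in plaque spots, 10331 in neighbours and 11095 in unmarked spots of the 5xFAD-Dp16 section, and at 9622, 8603 and 9963 CPM in plaque, neighbour and unmarked spots of the 5xFAD section. Mbp had log2 ratios -0.11 (-0.17 to -0.05) and -0.05 (-0.11 to 0.01) (edgeR adjusted p = 0.64). Mobp (-0.05 and -0.13), Mag (0.05 and -0.09), Mog (0.04 and 0.07) and Cnp (0.16 and 0.03) had log2 ratios near 0, with edgeR adjusted p between 0.604 and 0.968. Each 95% interval of these 5 genes lay between -0.29 and 0.31, counting error only. The gene that fell was Enpp2, autotaxin, which the choroid plexus also makes. It was at 856 CPM in plaque against 792 in unmarked spots of the 5xFAD-Dp16 section, and 670.2 against 2930.0 CPM in the 5xFAD section. Enpp2 had log2 ratios 0.11 (-0.12 to 0.33) and -2.13 (-2.34 to -1.93) (edgeR log2 fold change -1.17 ± 0.14 SE, adjusted p = 1.58e-13). Its ratio passed counting error in the 5xFAD section alone. There the choroid plexus and ependyma list summed to 52300 CPM in unmarked spots, against 2262 CPM in those of the 5xFAD-Dp16 section. The part of choroid plexus in the fall of Enpp2 was not tested.

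Oligodendrocyte genes described in disease and injury models gave 3 rises and 1 fall among 13 tested (relative medians 0.24 and 0.22). The 3 that rose were B2m, C4b and H2-D1, which microglia or astrocytes express as well and which the lists above also hold. The 1 that fell was Klk6, a serine protease of oligodendrocytes, at 38.3 CPM in plaque against 70.6 in unmarked spots of the 5xFAD-Dp16 section, and 42.7 against 114 CPM in the 5xFAD section. Klk6 had log2 ratios -0.88 (-2.06 to 0.11) and -1.42 (-2.36 to -0.60) (edgeR log2 fold change -1.35 ± 0.34 SE, adjusted p = 0.00459). Il33, a cytokine that oligodendrocytes make, was at 597 CPM in plaque against 471 in unmarked spots of the 5xFAD-Dp16 section, and 315 against 267 CPM in the 5xFAD section (edgeR adjusted p = 0.863). Serpina3n, a secreted protease inhibitor, was at 119 CPM in plaque against 56.0 in unmarked spots of the 5xFAD-Dp16 section, and 98.6 against 56.3 CPM in the 5xFAD section (log2 ratios 1.09 (0.40 to 1.75) and 0.81 (0.15 to 1.43)) and did not pass (edgeR adjusted p = 0.155). Of 9 tested precursor genes none passed, and Pdgfra, the receptor that marks these cells, was at 34.1 CPM in plaque against 23.3 in unmarked spots of the 5xFAD-Dp16 section, and 19.7 against 17.6 CPM in the 5xFAD section (edgeR adjusted p = 0.943).

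Few astrocyte genes passed the test. None of the 7 tested reactive astrocyte genes passed (relative medians 0.36 and 0.19). Beyond counting error 3 of the 7 were higher in both sections, where 2.60% of all genes were. Gfap, the intermediate filament of astrocytes, was at 775 CPM in plaque spots, 643 in neighbours and 562 in unmarked spots of the 5xFAD-Dp16 section, and at 726, 497 and 577 CPM in plaque, neighbour and unmarked spots of the 5xFAD section. Gfap had log2 ratios 0.47 (0.22 to 0.70) and 0.33 (0.11 to 0.55) (edgeR log2 fold change 0.26 ± 0.14 SE, adjusted p = 0.512). Both ratios passed counting error but not the test. The levels were 459 CPM in Dp16 and 264 CPM in wild-type white matter. Vim had log2 ratios of 0.06 and 0.29 and S100a6 0.65 and 0.59 (edgeR adjusted p 0.98 and 0.0616). Of 17 tested general astrocyte genes, S100b, a calcium-binding protein that oligodendrocytes also make, fell, at 460.2 CPM in plaque against 655 in unmarked spots of the 5xFAD-Dp16 section, and 447 against 680.2 CPM in the 5xFAD section. For S100b the edgeR log2 fold change was -0.70 ± 0.15 SE (adjusted p = 0.000123). Aqp4, the water channel of astrocyte endfeet, went opposite ways (log2 ratios 0.82 (0.27 to 1.34) and -1.33 (-1.96 to -0.75)).

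Transcripts of the mitochondrial genome were lower in plaque spots. All 12 tested mt- genes fell by edgeR, and each section on its own showed all 12 lower beyond counting error. Without the section as a block 2 of the 12 were called, and within cluster 3 alone 4 were. The log2 ratios of mt-Nd5, a subunit of respiratory complex I, were -1.35 and -0.70 (edgeR log2 fold change -1.15 ± 0.14 SE, adjusted p = 1.74e-14). Those of mt-Co1, a subunit of complex IV, were -0.75 and -0.15 (edgeR log2 fold change -0.59 ± 0.13 SE, adjusted p = 0.000585). For mt-Cytb, of complex III, they were -0.60 and -0.19 (edgeR log2 fold change -0.54 ± 0.13 SE, adjusted p = 0.00386). Each of the 12 log2 ratios was lower in the 5xFAD-Dp16 than in the 5xFAD section, a difference that was not tested. With mitochondrial, ribosomal and haemoglobin genes taken out of the totals, edgeR called 79 genes higher and 67 lower in plaque spots.

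**Figure D4:**
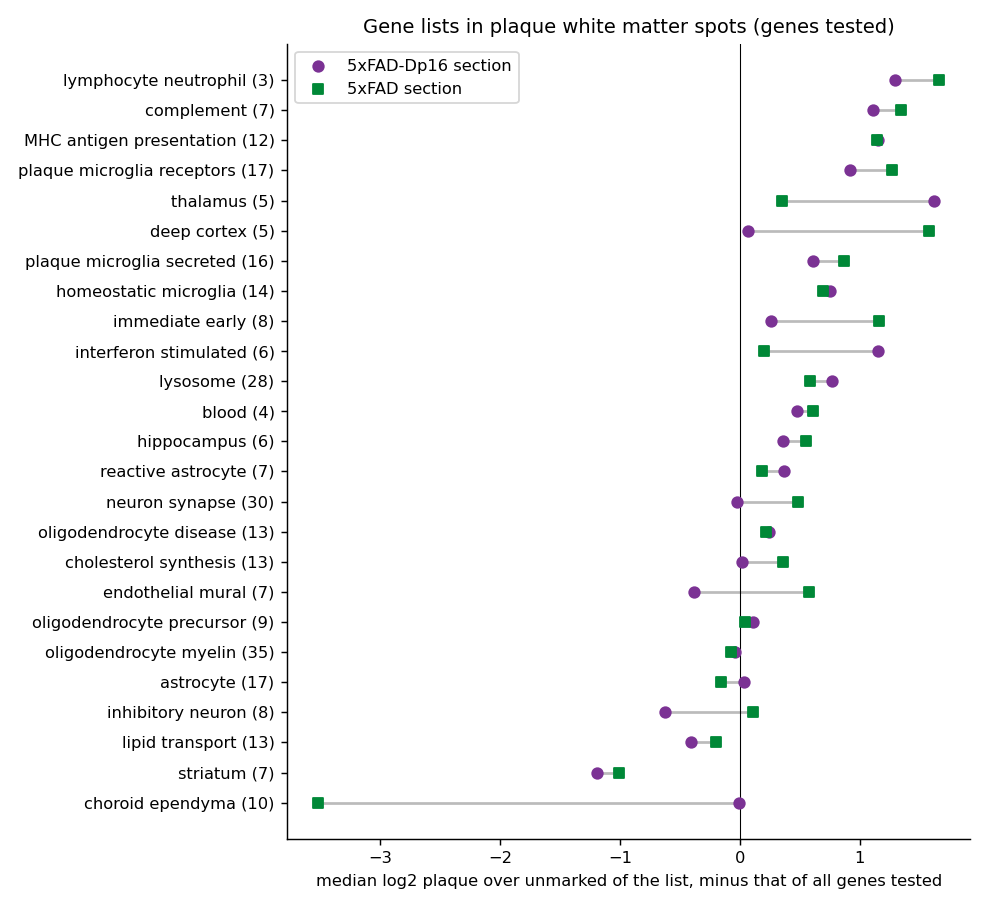
Median log2 ratio of plaque over unmarked spots for each gene list with at least 3 tested genes, minus the median of all genes tested in that section; circles are the 5xFAD-Dp16 section, squares the 5xFAD section, and the number tested is in parentheses. Complement, antigen presentation and microglial lists lie to the right in both sections, myelin and astrocyte lists near 0, and the choroid plexus list lies at 0.00 in the 5xFAD-Dp16 and at -3.51 in the 5xFAD section.

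Neuronal and regional genes had other ratios in each section, and the differences between the sections were not tested. Of the 30 tested neuron and synapse genes 3 rose by edgeR, Olfm1, Slc17a7 and Syt1, and none fell, with relative medians of -0.02 and 0.49. In the 5xFAD section 19 of the 30 were higher beyond counting error, where 12.9% of all genes were, and in the 5xFAD-Dp16 section 3 were, where 7.37% were. Slc17a7, the vesicular glutamate transporter of cortical neurons, was at 192 CPM in plaque against 152 in unmarked spots of the 5xFAD-Dp16 section, and 388 against 122 CPM in the 5xFAD section. Slc17a7 had log2 ratios 0.33 (-0.18 to 0.81) and 1.67 (1.32 to 2.02) (edgeR log2 fold change 0.94 ± 0.20 SE, adjusted p = 0.000164). Snap25, a synaptic SNARE protein, was at 1082 CPM in plaque against 806 in unmarked spots of the 5xFAD-Dp16 section, and 1064 against 675 CPM in the 5xFAD section and did not pass (edgeR adjusted p = 0.0616). Its log2 ratios, 0.42 (0.22 to 0.63) and 0.66 (0.47 to 0.84), both passed counting error. Cplx3 and Ccn2, markers of the deepest cortical layer, had log2 ratios of 0.38 and 2.28 and of 0.02 and 2.22 (edgeR adjusted p 0.00141 and 0.000744).

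Prkcd, a kinase of thalamic neurons, had log2 ratios of 2.89 and 0.05 (edgeR log2 fold change 1.12 ± 0.34 SE, adjusted p = 0.0453). Hpca, a calcium sensor of hippocampal and striatal neurons, had -1.20 and 0.96, opposite between the sections. Among peptides and markers of inhibitory neurons, Sst was at 669 CPM in plaque against 230.0 in unmarked spots of the 5xFAD-Dp16 section, and 397 against 287 CPM in the 5xFAD section. For Sst the edgeR log2 fold change was 0.86 ± 0.16 SE (adjusted p = 7.99e-06). The peptide gene Cck was at 490.0 CPM in plaque against 382 in unmarked spots of the 5xFAD-Dp16 section, and 949 against 263 CPM in the 5xFAD section. For Cck the edgeR log2 fold change was 1.02 ± 0.15 SE (adjusted p = 1.92e-09). Npy passed with ratios of opposite sign. Npy had log2 ratios -0.86 (-1.56 to -0.22) and 2.29 (1.90 to 2.68) (edgeR log2 fold change 0.86 ± 0.22 SE, adjusted p = 0.00404). The deep cortex list summed to 362 CPM in plaque and 297 in unmarked spots of the 5xFAD-Dp16 section, and 618 and 174 CPM in plaque and unmarked spots of the 5xFAD section, and the thalamus list to 499 CPM in plaque and 126 in unmarked spots of the 5xFAD-Dp16 section, and 312 and 261 CPM in plaque and unmarked spots of the 5xFAD section. The part of grey matter at the edge of the labelled region in these ratios was not tested.

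Of 7 tested striatal genes 3 fell and none rose, with relative medians of -1.19 and -1.01. Penk, the enkephalin precursor, was at 12.8 CPM in plaque against 258 in unmarked spots of the 5xFAD-Dp16 section, and 19.7 against 89.4 CPM in the 5xFAD section. Penk had log2 ratios -4.34 (-6.62 to -2.78) and -2.18 (-3.65 to -1.02) (edgeR log2 fold change -3.37 ± 0.37 SE, adjusted p = 1.76e-16). Tac1, the substance P precursor, had log2 ratios of -2.62 and -1.84 (edgeR log2 fold change -2.34 ± 0.50 SE, adjusted p = 0.000201). Ppp1r1b, the dopamine-signalling protein of striatal neurons, had -1.09 and -2.12 (edgeR log2 fold change -1.80 ± 0.29 SE, adjusted p = 6.17e-08). In plaque spots Penk rested on 3 and 6 UMIs.

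Choroid plexus genes fell through the 5xFAD section. Of 10 tested members of that list 6 fell, with relative medians of 0.00 and -3.51. Ttr, transthyretin, was at 1419 CPM in plaque against 2095 in unmarked spots of the 5xFAD-Dp16 section, and 634 against 51155 CPM in the 5xFAD section. Ttr had log2 ratios -0.56 (-0.73 to -0.40) and -6.33 (-6.55 to -6.13) (edgeR log2 fold change -3.56 ± 0.19 SE, adjusted p = 7.54e-71). The meningeal gene Myoc had log2 ratios of -0.50 and -3.91 (edgeR log2 fold change -2.61 ± 0.44 SE, adjusted p = 4.17e-07). Without the spots of clusters 12 and 13, 61 genes were higher and 35 lower in plaque spots, and 59 and 33 of them were also called with those spots kept.

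Genes outside these lists that stood highest included Crlf2, a receptor subunit for the cytokine TSLP, at 81.0 CPM in plaque against 15.5 in unmarked spots of the 5xFAD-Dp16 section, and 78.8 against 21.8 CPM in the 5xFAD section. For Crlf2 the edgeR log2 fold change was 1.93 ± 0.38 SE (adjusted p = 3.09e-05). Its unmarked spots alone did not reach a mean of 20 CPM, so Crlf2 passed that filter through its plaque spots. S100a4, a calcium-binding protein, was at 72.4 CPM in plaque against 19.8 in unmarked spots of the 5xFAD-Dp16 section, and 88.7 against 28.2 CPM in the 5xFAD section. For S100a4 the edgeR log2 fold change was 1.59 ± 0.37 SE (adjusted p = 0.0009). The transcriptional co-repressor Nab2 had log2 ratios of 1.78 and 2.75, Wfdc17, a secreted protein of activated macrophages, 2.39 and 1.74, the homeobox gene Lhx2 1.65 and 1.54 and the Golgi tethering subunit Cog6 1.72 and 1.54, and each passed (edgeR adjusted p at most 0.039). Levels in unmarked spots were 11.2 and 6.34 CPM for Nab2, 18.9 and 11.3 for Lhx2 and 7.75 and 16.9 for Cog6. Nab2, Lhx2 and Cog6 therefore passed the filter on low levels only through plaque spots and had to differ to be tested. Among the 10 lowest, Agt, the angiotensinogen made by astrocytes, was at 38.3 CPM in plaque against 99.9 in unmarked spots of the 5xFAD-Dp16 section, and 36.1 against 225 CPM in the 5xFAD section. Agt had log2 ratios -1.38 (-2.55 to -0.41) and -2.64 (-3.66 to -1.78) (edgeR log2 fold change -2.29 ± 0.31 SE, adjusted p = 7.19e-11). The other 9 were Penk and Tac1 and the low genes Ace, Vat1l, Rdh5, Acad8, Pbxip1, Arhgap35 and Mrps9, each of which had 8 UMIs or fewer in the plaque spots of each section, and Arhgap35 and Mrps9 did not pass (edgeR adjusted p 0.0636 and 0.0597).

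The microglial differences went together with the authors' expression clusters. Cluster 11 held 14 of 33 plaque spots (42.4%) against 13 of 181 unmarked spots (7.18%) in the 5xFAD-Dp16 section, and 17 of 39 (43.6%) against 12 of 187 (6.42%) in the 5xFAD section, and it held none of the 293 and 435 white matter spots of the Dp16 and wild-type sections. Cluster 3 held 13 plaque and 107 unmarked spots of the 5xFAD-Dp16 section, and 12 and 96 of the 5xFAD section. Clusters were formed on the same transcripts, so they are no independent measure of the tissue. Within cluster 11 the receptor list summed to 8982 CPM in plaque and 8132 in unmarked spots of the 5xFAD-Dp16 section and to 7811 and 7265 CPM in the 5xFAD section. Within cluster 3 it summed to 2497 and 2184 CPM in plaque and unmarked spots of the 5xFAD-Dp16 section, and to 2841 and 1902 CPM in the 5xFAD section. Within cluster 9 it summed to 1524 CPM in 3 plaque and 698 in 16 unmarked spots of the 5xFAD-Dp16 section. In the 5xFAD section the sums there were 1355 CPM in 5 plaque and 765 in 6 unmarked spots. Within cluster 11, plaque against unmarked levels of Cst7 were 1666 and 708 CPM (5xFAD-Dp16) and 858 and 526 CPM (5xFAD). In the same order, Trem2 had 1164 against 663 and 987 against 682 CPM, and Tyrobp 2921 against 3039 and 2194 against 2218 CPM.

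**Figure D5:**
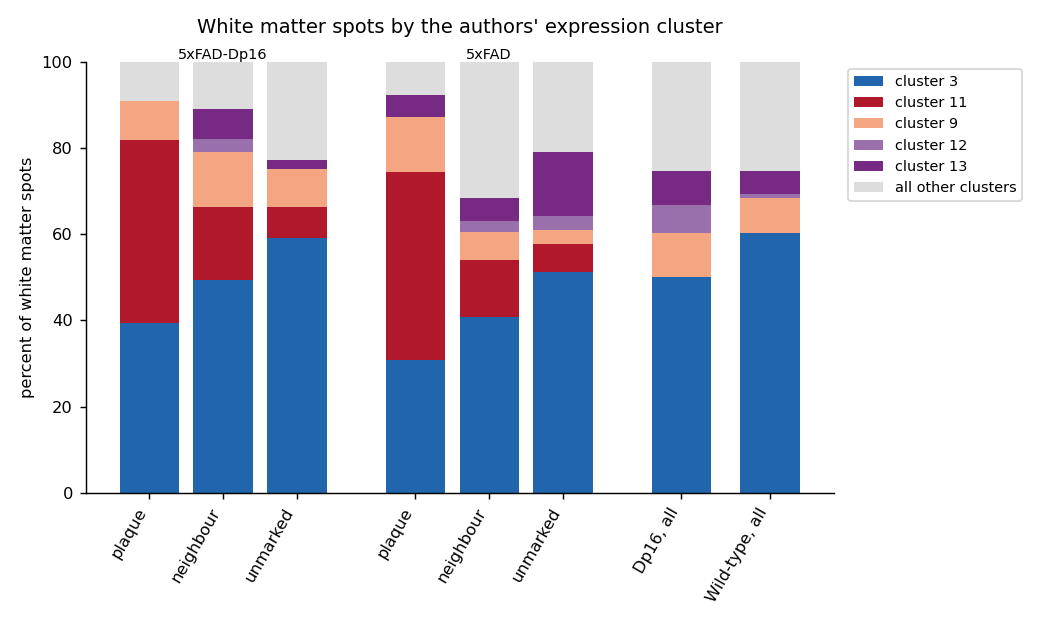
Percent of white matter spots in the authors' expression clusters 3, 9, 11, 12 and 13 and in all others, by class and section, as stacked bars that add up to 100. Cluster 11 takes 42.4% and 43.6% of plaque spots against 7.18% and 6.42% of unmarked spots in the 5xFAD-Dp16 and 5xFAD sections, and none in the Dp16 and wild-type sections.

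With unmarked spots weighted to the cluster makeup of the plaque spots, 5 genes were higher and 23 lower by edgeR, and the relative median of the receptor list was -0.12 in the 5xFAD-Dp16 and 0.27 in the 5xFAD section. The 5 higher genes, named after their values were seen, were Cst7 (log2 fold change 0.99 ± 0.14 SE, edgeR adjusted p = 7.65e-05), Trem2 (0.71 ± 0.14 SE, adjusted p = 0.0064), C4b (0.75 ± 0.15 SE, adjusted p = 0.00804), S100a4 (1.84 ± 0.41 SE, adjusted p = 0.0233) and Pcp4, a calmodulin-binding protein (0.73 ± 0.17 SE, adjusted p = 0.0268). Of the 12 mt- genes, 11 remained lower in this fit, and 4 within cluster 3 alone. Among the other lower genes of the weighted fit was Lgals3, of the secreted list (-2.22 ± 0.49 SE, edgeR adjusted p = 0.0233). Agt (-1.54 ± 0.35 SE, adjusted p = 0.0269) and S100b (-0.59 ± 0.14 SE, adjusted p = 0.0279) were also lower in it. Within cluster 3 alone, 6 genes were higher and 16 lower, and the receptor list's relative medians were -0.09 and 0.05. The log2 ratio of Trem2 there was -0.16 in the 5xFAD-Dp16 and 1.70 in the 5xFAD section (106 CPM in plaque against 118 in unmarked spots, and 355 against 109.6 CPM). That of Cst7 was 0.58 and 1.38. In the plaque spots of cluster 3 these ratios rested on 8 and 23 UMIs of Trem2 and on 3 and 7 UMIs of Cst7.

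Whether any of this was particular to white matter was tested against the 3 other regions with the most plaque spots, those labelled Thalamus, Hypothalamus and Cortex OLF. The interaction fit took 16 sums and had 4 residual degrees of freedom. All 16 sums came from the same 2 mice, so its p-values measure the spread between regions and sections of these animals, not between mice of a group. Of 6392 genes tested, the plaque effect was higher in white matter for 8 (0.125%) and lower for 18 (0.282%) by edgeR's quasi-likelihood test with Benjamini-Hochberg adjustment. Of the members of the microglial, lysosomal, complement, antigen presentation and interferon lists tested there, Cd52 alone passed, with a plaque effect of 0.86 in white matter and a difference from the other regions of -1.12 ± 0.24 SE (adjusted p = 0.0488). For Trem2 the effect was 2.05 in white matter against 1.89, 2.46 and 2.01 in thalamus, hypothalamus and olfactory cortex (difference -0.07 ± 0.21 SE, adjusted p = 0.962), and for Cst7 the difference was -0.01 ± 0.23 SE, adjusted p = 1. Tyrobp had a difference of -0.58 ± 0.13 SE, adjusted p = 0.0596. Medians of the fitted effects over the receptor list were 0.88 in white matter and 1.44, 1.84 and 1.21 in thalamus, hypothalamus and olfactory cortex.

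Gfap had fitted plaque effects of 0.28 in white matter against 1.62, 1.06 and 0.17 in thalamus, hypothalamus and olfactory cortex, and the difference did not pass (-0.67 ± 0.24 SE, adjusted p = 0.288). Neither did that of Mbp (-0.36 ± 0.15 SE, adjusted p = 0.375).

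The 5 largest positive differences were those of Cnr1, Sst, Lhx2, Prkce and Fxyd6. Cnr1, the cannabinoid receptor of neurons, had effects of 1.99 in white matter against -2.01, -0.33 and 0.07 in thalamus, hypothalamus and olfactory cortex (difference 2.75 ± 0.49 SE, adjusted p = 0.00883), although its log2 ratios in white matter were 0.50 and 2.89. Sst had a difference of 2.46 ± 0.36 SE, adjusted p = 0.00232, Lhx2 of 2.45 ± 0.51 SE, adjusted p = 0.0339, the kinase Prkce of 1.53 ± 0.29 SE, adjusted p = 0.0178 and Fxyd6, a regulator of the sodium pump, of 1.43 ± 0.26 SE, adjusted p = 0.00993. In the same order of regions, effects were 0.88 against -2.81, -1.71 and -0.21 for Sst and 1.49 against -0.79, -2.01 and -0.09 for Lhx2. They were 1.32 against -0.06, -0.53 and -0.06 for Prkce and 0.11 against -1.78, -1.58 and -0.60 for Fxyd6. Such a difference can thus hold falls in the other regions, and Fxyd6 did not pass in white matter itself (edgeR adjusted p = 0.966). The lowest were Ace, angiotensin-converting enzyme (-4.08 ± 0.59 SE, adjusted p = 0.00225), Igfbp2 (-3.72 ± 0.54 SE, adjusted p = 0.00225), the serotonin receptor Htr2c (-3.36 ± 0.67 SE, adjusted p = 0.023), the ion channel Trpm3 (-2.39 ± 0.48 SE, adjusted p = 0.0269) and Ppp1r1b (-2.21 ± 0.34 SE, adjusted p = 0.00286). The first 4 of these are also choroid plexus genes. In white matter, log2 ratios were -1.50 and -4.39 for Ace, -0.55 and -3.82 for Igfbp2 and -0.28 and -2.67 for Trpm3. For Ace, Igfbp2 and Trpm3 the ratio passed counting error in the 5xFAD section alone. Htr2c had -0.81, from a sum of 0 in plaque spots, and -3.17, and both passed counting error. How much of these differences came from choroid plexus in unmarked spots of the 5xFAD section was not tested. The fall of mitochondrial transcripts was larger in white matter for 4 mt- genes, with differences of -1.24 ± 0.20 SE for mt-Nd4l, -1.06 ± 0.15 SE for mt-Nd5, -0.92 ± 0.19 SE for mt-Atp8 and -0.76 ± 0.14 SE for mt-Nd1. S100b (-0.90 ± 0.15 SE) and the nuclear genes Cox7c (-0.61 ± 0.11 SE), Ldhb (-0.82 ± 0.13 SE) and Chchd10 (-0.85 ± 0.12 SE), of respiration, lactate metabolism and mitochondria, passed in the same direction.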

How the data were processed

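The authors deposited 1 matrix of raw UMI counts per gene and spot for 4 Visium sections (5xFAD-Dp16, 5xFAD, Dp16 and wild-type), and a spot table in the same order with section, region, cluster, plaque and neighbour columns. The deposited spot table also gives a percent of mitochondrial UMIs per spot, made by the authors; shares printed here were computed from the counts. Per the submitters' processing notes, Space Ranger, Seurat and mm10 were used. Versions, and the making of the region labels, clusters and marks, are not given in these sources.

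UMI counts were summed per class and section and divided by the sum's total (CPM). Ratios carry exact conditional binomial 95% intervals, with 3 counts standing in for a sum of 0. Intervals and floors cover counting error only. Genes of a mean of at least 20 CPM over the 4 sums were tested with edgeR 4.0.16 (TMM factors, quasi-likelihood F test, section as block, Benjamini-Hochberg adjustment, threshold 0.05). The section is the animal, so the block pairs plaque with unmarked spots of 1 mouse. The common dispersion was 0.0165. DESeq2 1.42.0 was an alternative. The fits were tested on simulated data. Each spot was thinned to 3421 UMIs for shares of spots. No doublet caller was run.

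Genes named were the 15 highest and 10 lowest by the smaller of both section ratios, the 3 most abundant and the highest and lowest members of each list, the 5 highest and 5 lowest of the interaction, and a set of marker genes. Further list members, and genes called in an alternative or in the interaction, were named after their values were seen. The members and the 27 gene lists were chosen with earlier results of these data known. Leaving out or keeping single clusters, and a robust fit, were chosen after seeing the data. The other alternatives changed scaling, filters, tool, block, neighbours and cluster weights. Some members of the lists are counted with their list but not reported by name here.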

Additional observations from a re-analysis of the deposited data

Results flagged for a closer look

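Hpca, Npy, Psap and Ifi27 were picked out because their plaque to unmarked ratios passed counting error in opposite directions in the 2 sections, and the difference between the sections was not tested. The log2 ratio of Hpca was -1.20 in the 5xFAD-Dp16 and 0.96 in the 5xFAD section. Npy had -0.86 in the 5xFAD-Dp16 and 2.29 in the 5xFAD section. Psap had 0.40 and -0.21, and Ifi27 had 0.53 and -0.97, in the 5xFAD-Dp16 and 5xFAD sections.

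A further 10 genes were picked out because the plaque effect in white matter minus the mean of that in thalamus, hypothalamus and olfactory cortex passed edgeR's interaction test. On the log2 scale the difference was 2.75 for Cnr1, 2.46 for Sst, 2.45 for Lhx2, 1.53 for Prkce and 1.43 for Fxyd6. It was -4.08 for Ace, -3.72 for Igfbp2, -3.36 for Htr2c, -2.39 for Trpm3 and -2.21 for Ppp1r1b.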

How the results depend on the processing

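Against 88 genes higher and 78 lower in plaque spots, DESeq2 called 20 and 10, a minimum of 5 CPM gave 41 and 48, and neighbours kept among unmarked spots gave 47 and 44. Without the section as a block, that is without pairing the spots of an animal, the counts were 18 and 5. Library size scaling gave 26 lower. Cluster weighting gave 5 higher and 23 lower, cluster 3 alone 6 and 16, clusters 3 and 11 gave 33 lower, and leaving out clusters 12 and 13 gave 35 lower. An unadjusted p under 0.05 was reached by 642 genes. Of genes past 1.5-fold in both sections, 100 were higher and 13 lower; TMM factors gave 64 and 29, a 2-fold limit 58 and 7, cluster 3 alone 16 and 4, and cluster weighting and clusters 3 and 11 gave 42 and 61 higher. The interaction, with 8 higher and 18 lower, gave 16 higher with library size scaling, 21 and 53 at 5 CPM and 10 lower with DESeq2. Without clusters 12 and 13 it gave 29 lower. Against hypothalamus alone it gave 23 and 38, against thalamus alone 10 lower and against olfactory cortex alone 2 higher. DESeq2 gave no adjusted p for 1424 of 6121 genes in white matter and for 2479 of 6392 in the interaction.

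Relative list medians under cluster weighting in the 5xFAD-Dp16 section were -0.12 for receptors, -0.11 for secreted products, 0.14 for lysosome, 0.27 for complement and 0.0387 for myelin. In the 5xFAD section they were 0.27 for receptors, 0.18 for lysosome, 0.21 for antigen presentation, -0.0991 for homeostatic microglia, 0.10 for neurons and 0.10 for myelin. Within cluster 3 alone the 5xFAD-Dp16 section had -0.0933 for receptors, -0.21 for secreted products, 0.11 for lysosome, 0.21 for complement, -0.0406 for antigen presentation, -0.26 for myelin and 0.175 for neurons. The 5xFAD section had 0.0548 for receptors, 0.0234 for secreted products, -0.19 for lysosome, 0.60 for antigen presentation and -0.32 for myelin. Myelin medians were -0.13 in the 5xFAD-Dp16 and -0.34 in the 5xFAD section for clusters 3 and 11, and -0.20 in the 5xFAD section without clusters 12 and 13. With neighbours kept, the neuron median was 0.25 in the 5xFAD section. Values of single genes below are given without intervals, so a change of sign alone does not show a reversal. Cluster 3 held 13 plaque spots of the 5xFAD-Dp16 and 12 of the 5xFAD section, and Trem2 in the former rested on 8 UMIs. Within cluster 3 alone, log2 values of opposite sign were in the 5xFAD-Dp16 section Cd68 -0.0680, Cd74 -0.71, Cnp -0.0101, Fabp5 -0.0850, Fth1 -0.0603, Gpr34 -0.40, H2-K1 -0.55, Hpca 0.91, Lyz2 -0.15, Npc2 -0.17, Npy 0.77, Serpina3n -0.22, Spp1 -0.18, Sst -3.68, Trem2 -0.16, Ttr 1.95. Within cluster 3 alone, log2 values of opposite sign were in the 5xFAD section Acad8 0.13, Arhgap35 2.22, Cd52 -0.21, Cd68 -0.69, Chchd10 0.0232, Crlf2 -0.11, Ctsz -0.11, Cx3cr1 -0.0315, Fcgr2b -0.11, Htr2c 0.71, Igfbp2 0.0465, Igkc 0.41, Ldhb 0.30, Npc2 -0.71, P2ry12 -0.48, Pbxip1 0.34, Penk 0.69, Serpina3n -1.37, Tac1 0.22, Vat1l 0.80, mt-Co1 0.0374. Within cluster 3 alone, log2 values of opposite sign were by edgeR Cd52 -0.19, Cd68 -0.41, Cd74 -0.12, Cd9 -0.0211, Ctsz -0.00390, Fabp5 -0.12, Gpr34 -0.0398, Igfbp2 0.13, Npc2 -0.55, Penk 0.21, Spp1 -0.19, Sst -0.10. With cluster weighting, log2 values of opposite sign were in the 5xFAD-Dp16 section Ccl3 -0.33, Cd52 -0.56, Cd63 -0.13, Cd68 -0.34, Fcer1g -0.0734, Gfap -0.0770, Igf1 -0.0611, Ppp1r1b 0.48, Spp1 -0.99, Ttr 1.79, Tyrobp -0.0842. With cluster weighting, log2 values of opposite sign were in the 5xFAD section Cd52 -0.15, H2-Ab1 -0.0774, P2ry12 -0.21, Sst -0.41. With cluster weighting, log2 values of opposite sign were by edgeR Cd52 -0.44, Cd68 -0.0929, Fcer1g -0.0524, Npy -0.0830. In clusters 3 and 11, such values were in the 5xFAD-Dp16 section Fth1 -0.0130, Hpca 0.25, Ttr 1.49. In clusters 3 and 11, such values were in the 5xFAD section Arhgap35 0.36, Ldhb 0.0473, Psap 0.0121. In clusters 3 and 11, such values were by edgeR Npy -0.0917. With TMM factors a log2 value of opposite sign was in the 5xFAD-Dp16 section Fth1 -0.0439. Without mitochondrial, ribosomal and haemoglobin genes such a value was in the 5xFAD-Dp16 section Fth1 -0.0359. With neighbours kept such a value was in the 5xFAD section Pcp4 -0.0289. Without clusters 12 and 13 such a value was in the 5xFAD section Psap 0.10.

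The causes of these changes were not tested; the clusters rest on the same transcripts. Leaving out a section leaves no residual degrees of freedom, so each section's own ratio stands in its place. Finer regions within white matter could not be tried, since the region label has none. Depth limits genes at few UMIs, and 1 animal per genotype limits every comparison between sections.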

Other observations

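Unmarked white matter spots of the sections with the 5xFAD transgenes had higher receptor and complement sums than white matter of the sections without them. These unmarked spots lie in sections that hold plaques, so the values give no order in time. The receptor list summed to 2380 CPM in unmarked spots of the 5xFAD-Dp16 section against 1182 CPM in Dp16 white matter, and to 1864 CPM in unmarked spots of the 5xFAD section against 1253 CPM in wild-type white matter. The complement list summed to 1646 CPM against 846 CPM in the first pair and to 1241 CPM against 834 CPM in the second. With 1 animal per genotype these are values of single sections, with no test.

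Neighbour spots showed receptor sums of 2738 CPM in the 5xFAD-Dp16 and 2266 CPM in the 5xFAD section, closer to unmarked than to plaque spots. Red cell transcripts were measured too: Hbb-bs, a beta-globin gene, was higher in plaque spots by edgeR, 1 of 4 tested blood genes. None of 13 tested cholesterol synthesis genes and none of 8 tested immediate early genes passed.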
